A study of Homo sapiens with 6 samples.

Results

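Transcripts of 7 genes of cholesteryl ester turnover were followed in THP-1 cells, a leukaemia line of human monocytic origin. They were taken from 26347 gene identifiers in the deposited count table. The genes were LIPA, NPC1, NPC2, SOAT1, NCEH1, PLIN2 and PNPLA2, and each was found by its NCBI gene identifier. All 7 passed the filter on low counts, which left 14731 genes in the test. The set was built around LIPA because LIPA was lower after the miR-125a-5p mimic in these same libraries. The other 6 genes were chosen by their role, with their values already known, so fold changes of all 7 are given as a description. Cells grown in RPMI with 10% FBS received either a negative control microRNA mimic or a miR-125a-5p mimic, 3 libraries each, and RNA was taken 24 h after transfection. The labels name monocytic cells and no differentiation step, although the title of the series speaks of macrophages. Whether each library came from its own culture is not labelled, so the spread between libraries may be technical.

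Cholesteryl esters that reach a cell in lipoproteins are split in lysosomes by lysosomal acid lipase, the product of LIPA. The freed cholesterol is taken up by the soluble protein NPC2 and passed to NPC1 in the lysosomal membrane, from where it leaves the organelle. Surplus cholesterol is esterified again by SOAT1 in the endoplasmic reticulum and stored in lipid droplets coated by PLIN2. NCEH1 is a neutral cholesteryl ester hydrolase of macrophages, and PNPLA2, also called ATGL, starts the breakdown of droplet triglycerides. In foam cells, the lipid-laden macrophages of atherosclerotic plaques, this cycle helps to set how much free cholesterol is available for efflux.

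A microRNA recognises messenger RNAs mainly through its seed, bases 2 to 8 from the 5′ end. The mature sequence of the transfected microRNA is shown with the other human microRNAs of RefSeq (GRCh38.p14) that share its seed, because a site for one is a site for all 3. Capitals mark the seed, and all sequences run 5′ to 3′.
hsa-miR-125a-5p: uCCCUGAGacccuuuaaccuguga
hsa-miR-125b-5p: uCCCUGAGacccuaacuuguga
hsa-miR-4319: uCCCUGAGcaaagccac
The matching site classes were searched on the transcript strand in each 3′ untranslated region (3′ UTR) of GENCODE release 29, on GRCh38. The classes nest within each other. The 8mer is CTCAGGGA, the 7mer-m8 CTCAGGG, the 7mer-A1 TCAGGGA and the 6mer TCAGGG. Each gene was counted under the best class in its longest 3′ UTR.

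Of the 7 genes, LIPA alone carried a match of 7 or 8 bases. NPC2 carried a 6mer, and NPC1, SOAT1, NCEH1, PLIN2 and PNPLA2 carried none of the classes in their longest 3′ UTR. The pair of matches is shown with the bases upstream of it, because the upstream bases face the 3′ part of the microRNA. Capitals mark the match.
LIPA 8mer: atgttttcggatgcaaactcagCTCAGGGA
NPC2 6mer: gctgtggtcttctcctgctccttTCAGGGt
LIPA is annotated at chr10:89213569-89414557 (GRCh38, minus strand). Its 8mer lies at chr10:89213857-89213864, in the last exon of a transcript with 10 exons, and was present in 3 of 3 annotated 3′ UTRs. It occupies bases 964 to 971 of a 3′ UTR of 1259 bases. The NPC2 match is at chr14:74479906-74479911 on the minus strand, in the 3′ UTR of exon 4 of 4. It was present in 1 of 6 annotated 3′ UTRs, and the shortest one, of 178 bases, lacked it. Upstream of the stop codon of the same transcripts, NCEH1 held a 6mer and the other 6 genes held no match.

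An 8mer was present in 6.0% of the 12796 tested genes with a searchable 3′ UTR, a 7mer-m8 as best class in 10.4%, a 7mer-A1 in 7.97% and a 6mer in 13.0%. The remaining 62.7% had none of them. The 3′ UTR of SOAT1 is long, 5039 bases, and held no match. Among tested genes with a 3′ UTR of at least 5000 bases, 79.5% held a 6mer or better. The longest 3′ UTRs of the others without a match measured 3226 bases for NCEH1, 1480 for NPC1, 711 for PNPLA2 and 478 for PLIN2.

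The surroundings of the LIPA site were set beside those of all 768 tested genes with an 8mer. RNAduplex predicted pairing of LIPA with 8 bases of the microRNA, bases 1 to 8 and none further along, whereas the median was 15 paired bases. The predicted energy of the LIPA duplex was -14.4 kcal/mol against a median of -17.7 kcal/mol, and 94.4% of 8mer genes had a lower (stronger) one. The 30 bases on each side of the LIPA site were 65.0% A or U, against a median of 48.3%, and 87.1% of 8mer genes had a lower share. The site lay 288 bases from the nearer end of the 3′ UTR, against a median of 625.5 bases. The predicted pairing of the LIPA site was thus limited to the seed region, in flanks richer in A and U than most. In the plot of energy against flank composition it lies near the top, to the right of most points. These are features of sequence, and no link to the measured levels was tested.

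**Figure D1:**
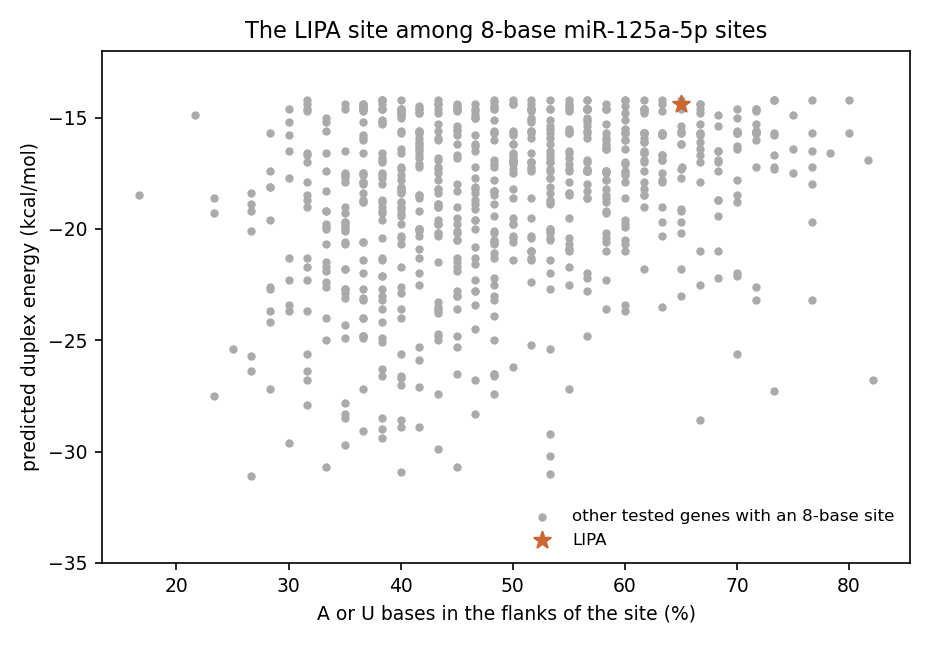
Each point is 1 tested gene with an 8-base miR-125a-5p site in its longest 3′ UTR (768 genes), by the share of A or U in the 30 bases on each side (x axis, %) and the predicted energy of the duplex with the microRNA (y axis, kcal/mol, lower is stronger). LIPA, the star, stands at 65.0% and -14.4 kcal/mol.

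Depth lay between 8256149 and 10257791 counts per library. Levels are CPM, counts relative to the library's depth, with edgeR's TMM scaling factors applied. On the leading principal component of log2 CPM, control library 1 lay at -38.2 and the other 5 libraries at 1.14 to 16.3. Many results are given with and without it. Group comparisons given once include it, and some of them shift when it is left out. As CPM of raw library totals, without the scaling factors, the monocytic markers (9 genes) summed to 2360 to 2490 CPM in the control group. In the miR-125a-5p group they summed to 2307 to 2410 CPM. The list was uneven: over both groups CSF1R stood at 686 to 853 CPM, CD14 at 13.7 to 20.8 CPM and MPO at 0.594 to 4.87 CPM. Markers of T cells, fibroblasts, epithelium and erythroid cells stayed at or under 2.53 CPM in sum in every library, with CD3E, KRT5, KRT19, HBA1 and HBB at 0 throughout.

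LIPA was the member with the largest difference. It stood at 285, 204 and 191 CPM in control libraries 1, 2 and 3, and at 123, 109 and 100 CPM in miR-125a-5p libraries 1, 2 and 3. Every miR-125a-5p library was below every control library, and control library 1 was the highest of all. Against the control mean, the miR-125a-5p libraries were 45.4%, 52.0% and 55.6% lower. The log2 fold change fitted across all genes by edgeR was -1.03 (SE 0.12, 95% interval -1.29 to -0.78), a level 51.1% lower. Without control library 1 it was -0.83 (SE 0.10), a level 43.9% lower. LIPA was 1 of 4 genes (0.0272% of those tested) that passed as lower at a Benjamini-Hochberg adjusted p of 0.05, and this is the value it was chosen by. In total RNA of a culture, fewer cells with the transcript and less transcript per cell cannot be told apart.

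Raw counts of LIPA were 838 to 2902 per library. The coefficient of variation was 22.6% over the 3 controls and 10.6% over the 3 miR-125a-5p libraries. Among the 4390 genes with at least 50 CPM in control the medians were 7.56% and 7.15%, and 98.1% of these genes had a lower control value than LIPA. Without control library 1 the control value of LIPA was 4.66%, against a median of 4.47%, and 51.3% of the genes had a lower one, so the wide spread came from that library. Among 8mer genes, 5 of 768 had a lower log2 fold change than LIPA, and the median of the class was -0.065. Of all 11597 genes with a mean of at least 5 CPM, 4 had a lower one. Without that minimum, which the 8mer genes did not have either, LIPA held place 62 among all 14731 tested genes. LIPA was chosen by its fall, so these places are a description. They were not computed without control library 1.

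The annotated LIPA gene spans IFIT genes, interferon-induced antiviral genes on the opposite strand. LIPA shares 65 exon bases, 1.32% of its annotated exon length, with IFIT2. IFIT2 stood at 213 to 261 CPM in the control group and 143 to 233 CPM in the miR-125a-5p group, ranges that overlap, with a log2 fold change of -0.26. The antisense gene AL353751.1 shares 135 exon bases (2.75%) and was not analysed here. Whether the counts use strand is not given in the sources used here, so reads from the shared bases cannot be told apart. Their part in the LIPA difference was not tested.

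The transcripts of both cholesterol export proteins of the lysosome were measured. NPC1 stood at 66.2, 83.9 and 66.7 CPM in control libraries 1, 2 and 3, and at 52.1, 56.7 and 66.0 CPM in miR-125a-5p libraries 1, 2 and 3. The groups did not overlap, but miR-125a-5p library 3 lay next to the lowest control. The log2 fold change of NPC1 was -0.31 (SE 0.12, 95% interval -0.56 to -0.06), and it did not pass the adjusted threshold. It was -0.37 without control library 1 and -0.19 without control library 2, the library with the highest NPC1. At an unadjusted edgeR p of 0.05, 3.22% of all tested genes were lower, NPC1 among them. NPC1 shares 604 exon bases, 5.98% of its annotated exon length, with RMC1 on the opposite strand, whose means were 29.6 CPM with the control and 27.6 CPM with the miR-125a-5p mimic.

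NPC2, the partner of NPC1 in the lysosomal lumen, stood at 126, 154 and 133 CPM in control libraries 1, 2 and 3. In miR-125a-5p libraries 1, 2 and 3 it stood at 134, 147 and 139 CPM. The groups overlapped, and the log2 fold change was 0.03 (SE 0.10, 95% interval -0.18 to 0.23). NPC2, the member with a 6mer in 1 of its 3′ UTRs, thus differed by less than the spread between libraries. Its sign turned to -0.038 without control library 1 and to -0.010 without miR-125a-5p library 2. NPC2 shares 103 exon bases (3.75%) with ISCA2 on the opposite strand, whose means were 25.1 and 24.6 CPM with the control and miR-125a-5p mimics. The exons of NPC2 also hold the microRNA gene MIR4709 on the same strand (72 bases), which has a row of its own in the count table. That row had means of 41.4 CPM with the control and 40.8 CPM with the miR-125a-5p mimic, so reads of this stretch may have been split between the rows.

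SOAT1, the enzyme that esterifies cholesterol in macrophages, stood at 81.4, 76.3 and 86.5 CPM in control libraries 1, 2 and 3. In miR-125a-5p libraries 1, 2 and 3 it stood at 76.5, 78.1 and 87.4 CPM. The ranges were almost the same, and the log2 fold change was -0.01 (SE 0.11, 95% interval -0.23 to 0.21). Its sign turned without control library 3 (0.032), miR-125a-5p library 1 (0.022) or miR-125a-5p library 2 (0.008). SOAT2, the other cholesterol esterifying enzyme, did not pass the filter on low counts.

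PLIN2, the droplet coat protein, was the most abundant member. It stood at 354, 436 and 421 CPM in control libraries 1, 2 and 3, and at 402, 507 and 416 CPM in miR-125a-5p libraries 1, 2 and 3. The lowest value was in control library 1 and the highest in miR-125a-5p library 2, and the other 4 libraries lay together whichever mimic they had received. The log2 fold change was 0.13 (SE 0.10, 95% interval -0.08 to 0.34), which did not pass. It was 0.04 without control library 1 and 0.02 without miR-125a-5p library 2.

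NCEH1, the neutral cholesteryl ester hydrolase, stood at 39.2, 43.7 and 38.3 CPM in control libraries 1, 2 and 3. In miR-125a-5p libraries 1, 2 and 3 it stood at 41.1, 43.0 and 49.5 CPM. The groups overlapped, with miR-125a-5p library 3 the highest. The log2 fold change of NCEH1 was 0.14 (SE 0.13, 95% interval -0.12 to 0.40), and 0.06 without miR-125a-5p library 3.

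PNPLA2 was the scarcest member, with 63 to 102 raw counts per library. It stood at 10.0, 8.76 and 9.61 CPM in control libraries 1, 2 and 3, and at 7.40, 8.26 and 8.38 CPM in miR-125a-5p libraries 1, 2 and 3. The groups did not overlap, but the low counts gave a wide interval. The log2 fold change was -0.24 (SE 0.22, 95% interval -0.70 to 0.22), which did not pass. An antisense gene shares 401 exon bases, 10.4% of the annotated exon length of PNPLA2, and was not analysed here.

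**Figure D2:**
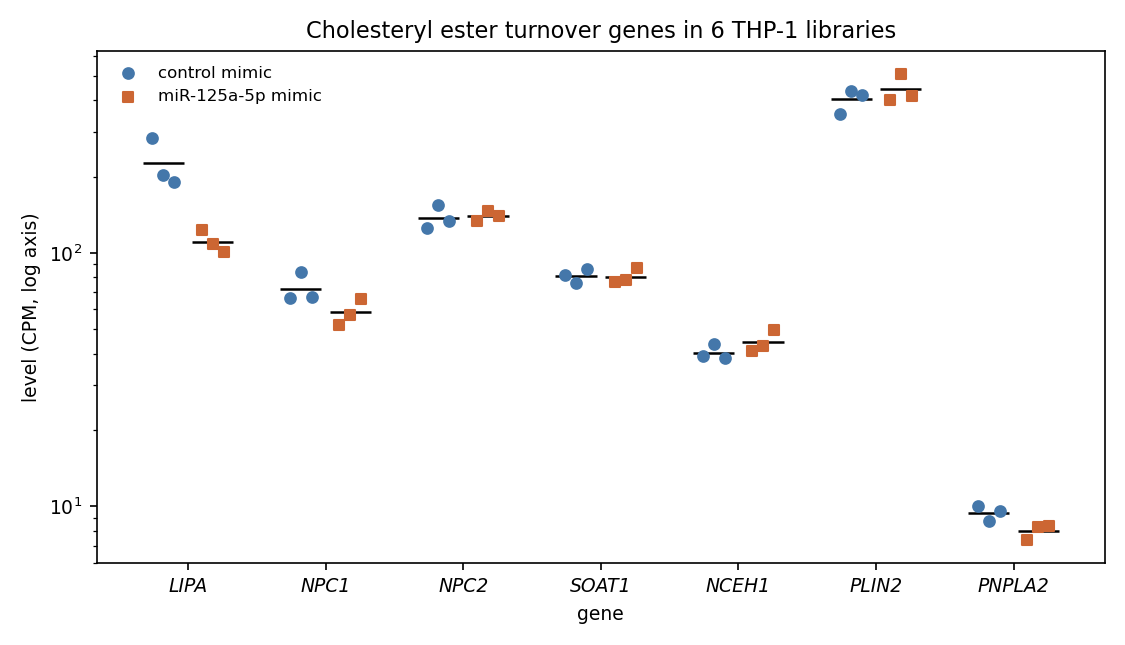
Level of each member in CPM (y axis, log scale) in the 3 control libraries (circles) and 3 miR-125a-5p libraries (squares), in replicate order from left to right, with the group mean as a bar. LIPA groups lie apart, at 191 to 285 and 100 to 123 CPM, while those of NPC2, SOAT1, NCEH1 and PLIN2 overlap.

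**Figure D3:**
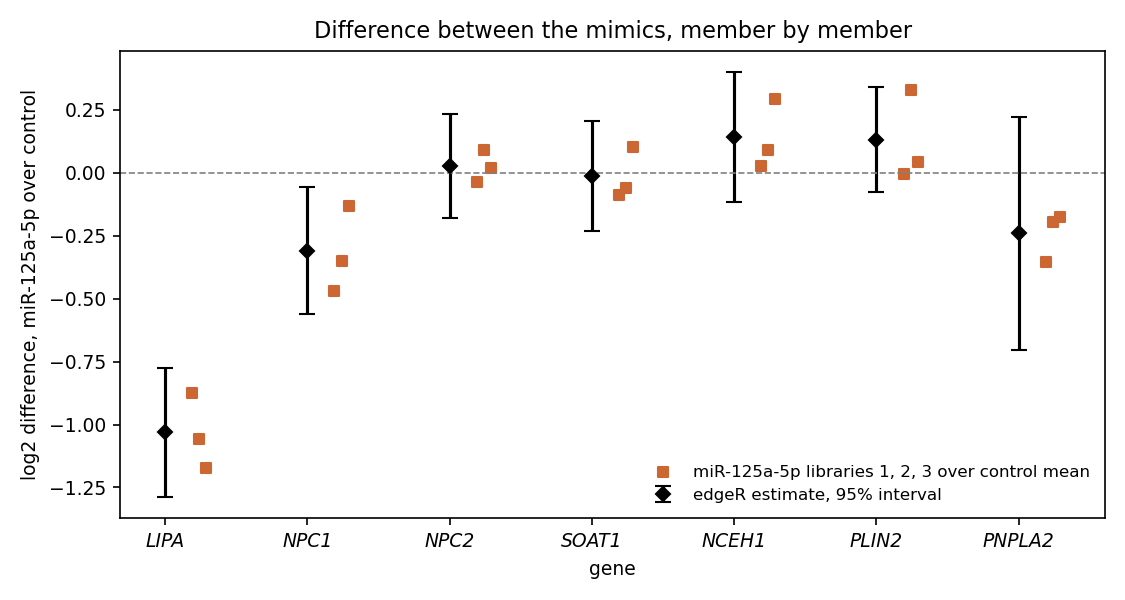
Log2 difference of miR-125a-5p over control for each member: the diamond is the edgeR estimate with its 95% interval, and the squares are the 3 miR-125a-5p libraries, each over the control mean. LIPA lies at -1.03, and the intervals of the members other than LIPA and NPC1 include 0. The intervals are not adjusted for the number of genes, and NPC1 did not pass the adjusted threshold.

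The members had no common direction. Of the 7, 4 had a negative and 3 a positive log2 fold change, with a median of -0.01 beside 0.00 over all tested genes. The median of the 6 without LIPA was 0.01. LIPA, NPC1 and PNPLA2 were lower in every miR-125a-5p library than in every control library, and no member was higher in all of them. Such lower, non-overlapping groups were found in 5.9% of all tested genes, higher ones in 5.31%, and either in 11.2%. The members were chosen with these values known, so nothing is read from that count.

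Levels were compared between genes per kilobase of the longest principal coding transcript in GENCODE 29, as CPM per kilobase. In control libraries PLIN2 was highest at 205 ± 22.0 CPM per kilobase (SD, n = 3). NPC2 followed at 133 ± 14.1 and LIPA at 81.3 ± 18.4 CPM per kilobase, without overlap between these 3. NPC1 at 14.0 ± 1.96 and SOAT1 at 11.9 ± 0.749 CPM per kilobase differed by less than the sum of their SDs. Their control ranges, 12.8 to 16.3 and 11.2 to 12.7 CPM per kilobase, did not overlap. NCEH1 stood at 8.62 ± 0.616 and PNPLA2 at 3.90 ± 0.262 CPM per kilobase. After the miR-125a-5p mimic LIPA still ranked below PLIN2 and NPC2 and above the rest, at 39.8 ± 4.20 CPM per kilobase (SD, n = 3). There SOAT1 at 11.8 ± 0.864 ranked above NPC1 at 11.3 ± 1.37 CPM per kilobase, with ranges that overlapped. Per length of all annotated exons NPC1 ranked below SOAT1 and NCEH1, so the order of these 3 depended on the length used. PLIN2, NPC2 and LIPA kept the top places and PNPLA2 the last.

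The transcript of the acid lipase was set against those of the other steps as the ratio of LIPA to each member per length. Protein, enzyme activity and cholesteryl ester were not measured in these libraries. LIPA over SOAT1, the transcript for lysosomal hydrolysis against that for re-esterification, was 8.59, 6.56 and 5.41 in control libraries 1, 2 and 3. In miR-125a-5p libraries 1, 2 and 3 it measured 3.97, 3.41 and 2.82. LIPA over NCEH1, the acid against the neutral hydrolase, was 9.49 ± 2.41 in control and 4.24 ± 0.820 in miR-125a-5p libraries (SD, n = 3). Control library 1 had the highest ratio for each denominator (12.3 for NCEH1), and the other controls had 7.85 and 8.38 for NCEH1. For SOAT1 and NCEH1 every miR-125a-5p ratio was below every control ratio. LIPA over PLIN2 went from 0.407 ± 0.141 to 0.180 ± 0.034 and LIPA over NPC2 from 0.622 ± 0.191 to 0.295 ± 0.041. In control libraries 2 and 3 alone these ratios were 0.331 and 0.321 for PLIN2 and 0.492 and 0.533 for NPC2. LIPA over NPC1 was 4.49 to 7.97 in control and 2.82 to 4.39 in miR-125a-5p libraries, the narrowest gap. These ratios carry the LIPA values that chose the set and are a description.

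**Figure D4:**
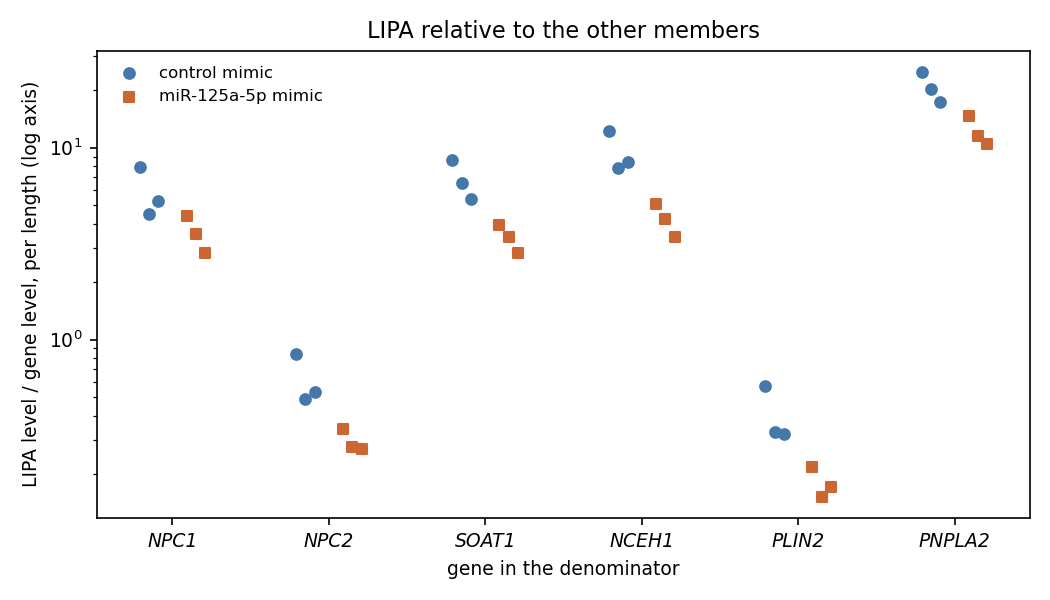
LIPA level divided by that of each other member, per transcript length (y axis, log scale), in 3 control libraries (circles) and 3 miR-125a-5p libraries (squares). For each denominator the squares lie below the circles, with the closest approach for NPC1 (4.39 against 4.49).

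Genes of neighbouring steps were grouped in 7 lists by role, 87 genes of which 81 were tested. List medians of the log2 fold change lay between -0.12 and 0.02, against -1.03 for LIPA, which was chosen by its fall. By edgeR, 0 of the 81 passed the adjusted threshold, while 5 were lower and 2 higher at an unadjusted p of 0.05, where 3.22% and 2.69% of all tested genes were. DESeq2 called 1 of the 81, NEU1, as lower. Of the 81 genes 47 had a negative log2 fold change, with a median of -0.03, beside 49.8% negative and a median of 0.00 over all tested genes.

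Delivery of enzymes to lysosomes (12 tested genes, 9 negative, median log2 fold change -0.04) includes the mannose 6-phosphate receptors that carry acid lipase. CLN6, an endoplasmic reticulum protein of lysosomal enzyme transport, stood at 126 ± 4.01 CPM with the control and 96.1 ± 13.7 CPM with the miR-125a-5p mimic (SD, n = 3). Its log2 fold change was -0.39 (SE 0.11, edgeR adjusted p = 0.393). SCARB2, the LIMP-2 membrane protein of lysosomes, had a log2 fold change of -0.23, or -0.07 once control library 1 was left out.

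Lysosomal lipid hydrolases and their activators (14 tested, 8 negative, median log2 fold change -0.02) included NEU1, a sialidase. NEU1 stood at 67.9, 81.6 and 71.2 CPM in control libraries and had a mean of 50.6 ± 6.28 CPM in miR-125a-5p libraries (SD, n = 3). Its log2 fold change was -0.54 (SE 0.12, edgeR adjusted p = 0.172). HEXA, a subunit of beta-hexosaminidase, had 0.11 (SE 0.11). With 1 miR-125a-5p library left out HEXA had 0.19 (library 1), 0.06 (library 2) or 0.06 (library 3).

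Sterol transfer between membranes (12 tested, 6 negative) had a median log2 fold change of 0.01. VAPB, a membrane contact protein of the endoplasmic reticulum, stood at 66.8 ± 5.56 and 78.0 ± 2.97 CPM in control and miR-125a-5p libraries (SD, n = 3), with a log2 fold change of 0.22. STARD3, a sterol transfer protein of late endosomes, had -0.32 (SE 0.18), or -0.22 without control library 1. Neither passed by edgeR.

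Genes of acyl-CoA supply, esterification and triglyceride synthesis (12 tested, 5 negative) had a median log2 fold change of 0.01. ACAT2, a cytosolic acetoacetyl-CoA thiolase and not an esterifying enzyme, stood at 300.3 ± 13.5 CPM with the control (SD, n = 3). With the miR-125a-5p mimic it stood at 342 ± 17.0 CPM (SD, n = 3), a log2 fold change of 0.19. ACSL5, which activates long-chain fatty acids, had 0.22 (SE 0.12). Neither passed.

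In the list of droplet coat and assembly genes, 9 were tested and 4 were negative, with a median log2 fold change of 0.02. PLIN1, PLIN5, CIDEC and FITM1 did not pass the filter on low counts. CIDEB, a droplet fusion protein, had a log2 fold change of 0.16 (SE 0.15), or -0.001 once control library 1 was left out, 0.003 without miR-125a-5p library 2 and 0.31 without miR-125a-5p library 1. FITM2, which helps to form droplets, had -0.28 (SE 0.51), 0.004 without control library 1 and -0.46 without control library 3.

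Cytosolic neutral lipid hydrolysis (11 tested, 6 negative) had a median log2 fold change of -0.01. MGLL, the monoglyceride lipase, had 0.39 (SE 0.23), 0.63 without control library 1 and 0.13 without control library 3. G0S2, an inhibitor of the PNPLA2 enzyme, had -0.42 (SE 0.27), -0.09 without control library 1 and -0.65 without control library 3. Neither passed with any library left out.

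Transcription factors of lysosomal and lipid genes (11 tested, 9 negative) had the lowest median of the 7 lists, -0.12 on the log2 scale. FOXO3 stood at 192 ± 9.75 and 165 ± 11.0 CPM in control and miR-125a-5p libraries (SD, n = 3), a log2 fold change of -0.22 (SE 0.09). NR1H3, the oxysterol receptor LXR-alpha, had -0.37 (SE 0.21), -0.23 without miR-125a-5p library 1 and -0.59 without miR-125a-5p library 2. Both missed the adjusted threshold.

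**Figure D5:**
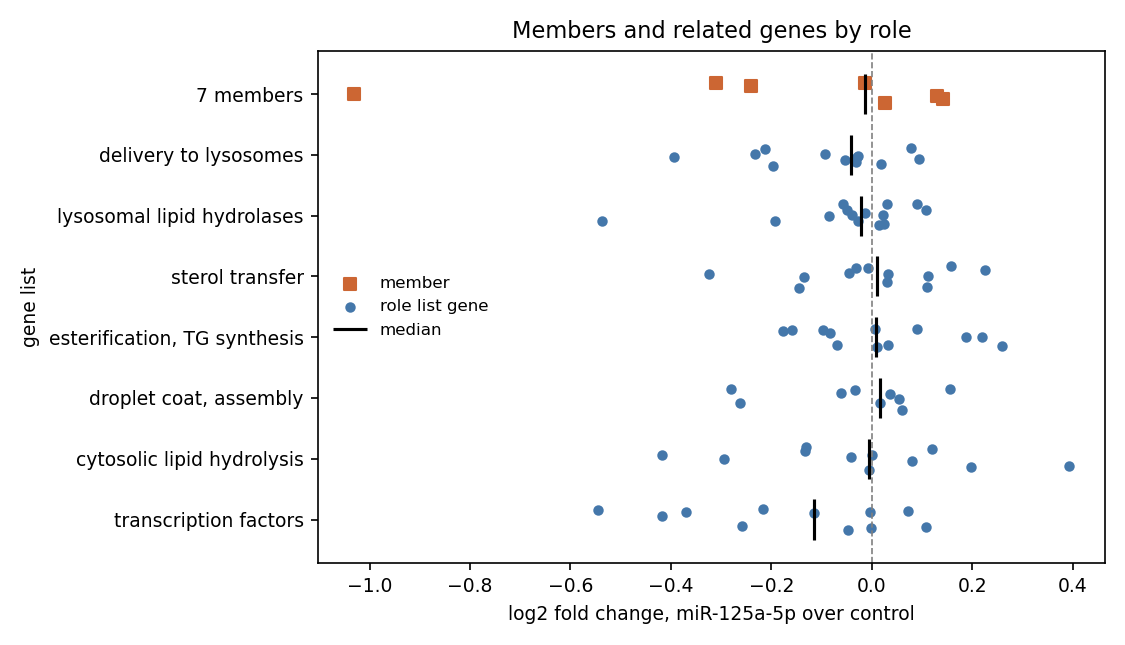
Log2 fold change of miR-125a-5p over control (x axis) for the 7 members (squares) and the tested genes of 7 role lists (circles), with list medians as bars; vertical scatter within a row has no meaning. LIPA, which was chosen by its fall in this contrast, lies at -1.03, to the left of every gene of the lists.

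The 8mer found in LIPA also occurred in the lists, in 10 of 80 searched genes (12.5%), beside 6.0% of all tested genes searched. The lists were chosen with earlier results of these data known, so nothing is read from that share. The 10 genes were SCARB2, M6PR, IGF2R, NEU1, PPT1, LPIN2, DGAT1, PLIN4, LDAH and ABHD6. All but SCARB2 and NEU1 were named for their site after their values were seen. Of the 10, 7 had a negative log2 fold change, with a median of -0.14, beside 61.5% negative and a median of -0.065 over all 768 genes with an 8mer. M6PR and IGF2R, the receptors that bring mannose 6-phosphate-tagged enzymes such as acid lipase to lysosomes, had log2 fold changes of -0.20 (SE 0.09) and -0.09 (SE 0.08). DGAT1, which makes triglycerides, had -0.10 (SE 0.12), and PPT1, a lysosomal thioesterase, had 0.03 (SE 0.08). None of the 10 passed by edgeR. At an unadjusted edgeR p of 0.05, 3 of them (SCARB2, M6PR and NEU1) were lower, as were 3.22% of all tested genes. The share among all 768 genes with an 8mer was not counted. SCARB2 had a log2 fold change of -0.07 without control library 1. DESeq2 called NEU1.

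The genes most like LIPA over the 6 libraries were sought by Pearson's r of log2 CPM among 11596 genes with a mean of at least 5 CPM. The closest were SPACA6 (r = 0.991), CABLES1 (0.986), EOLA2 (0.981), ACVR1B (0.979) and SLC1A4 (0.979). Of these, ACVR1B held a 6mer and the others no match in the longest 3′ UTR. CABLES1 had a log2 fold change of -0.69 and SLC1A4 of -0.11, so the likeness is of shape and not of size. An r above 0.9 was reached by 131 genes. Over the 5 libraries without control library 1 the named genes had r between 0.958 and 0.986, and 0 of the 5 were among the 5 closest, so the choice of names rests on that library. These points share libraries and depth, and 6 libraries give many high values of r. Each r also carries the difference between the groups, by which LIPA was chosen. Of the other members PNPLA2 came nearest, at r = 0.793 and place 514, and 0.632 without control library 1. NPC1 had 0.530, and 0.676 without it. NCEH1 had -0.664 (-0.578 without it) and PLIN2 -0.606 (-0.200 without it). SOAT1 had -0.054 (-0.130 without it), and the sign of NPC2 turned from -0.354 to 0.192.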

How the data were processed

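The deposited table holds the authors' raw counts for each gene in 6 libraries of total RNA, as whole numbers that were not normalized. The submitters' processing notes list bcl2fastq, TopHat, edgeR and hg19. The tool, annotation and strand setting used for counting, and the handling of reads with several matches, are not given here by any source. Identifiers were named from RefSeq (GRCh38.p14, 26204 of 26347 matched), and 0 columns belonged to no library.

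Counts were filtered with filterByExpr, scaled with TMM factors and tested with glmQLFit and glmQLFTest of edgeR 4.0.16 in R 4.3.3, with Benjamini-Hochberg adjustment over 14731 genes. SEs are the log2 fold change divided by the square root of F, and 95% intervals use the fitted degrees of freedom. The steps were tested on simulated counts. Replicate libraries differed by more than sampling noise (chi-square per gene 4.01 to 12.0 within groups), and all 6 were kept as separate samples. Such a spread does not show that they came from separate cultures.

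Sites, lengths and coordinates come from GENCODE 29 on GRCh38, which is not the build of the counts. Duplex energies are from RNAduplex 2.7.2, with the 30 bases that end opposite base 1 of the microRNA, at the 8mer nearest the stop codon of each gene. Names in the text are all members, called genes of each role list or otherwise up to 2 with the smallest p, and the 5 genes most like LIPA. Members, lists and this rule were chosen with earlier results of these data known. Alternatives covered scaling, the count filter, DESeq2 1.42.0, limma voom 3.58.1, edgeR's likelihood ratio test, leaving out each library, a block for the replicate number, shortest 3′ UTRs and Spearman's rho. Lengths over all annotated exons, and the spread, ratios and likeness of LIPA without control library 1, were added after seeing the data.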

Additional observations from a re-analysis of the deposited data

How the results depend on the processing

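LIPA passed as lower under all 15 alternatives for normalization, filter, test, left-out library and block, with log2 fold changes from -1.14 to -0.83, the latter without control library 1. The 6 other members passed under none of the 15. The number of genes called over the whole table depended on the setting: 4 were lower and 0 higher, against 41 and 11 with no count filter, 11 and 2 with DESeq2, and 17 and 4 with edgeR's likelihood ratio test. With 1 library left out, 3 to 14 were lower (14 without control library 3) and 0 to 2 higher (2 without miR-125a-5p library 3). The causes were not tested. Of the 81 genes in the role lists, 1 was lower with no count filter, DESeq2 and the likelihood ratio test, and 0 were lower or higher with 1 library left out. It was NEU1, with adjusted p of 0.00806, 0.0498 and 0.0240 in these settings (range over its alternatives 0.00806 to 0.636). With 1 library left out, log2 fold changes of both signs were found for NPC2 (-0.038 to 0.112), SOAT1 (-0.077 to 0.032), CIDEB (-0.001 to 0.309) and FITM2 (-0.463 to 0.004). The 6mer of NPC2 was lost in its shortest 3′ UTR. Spearman's rho kept 2 of the 5 genes most like LIPA.

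With the replicate number as a block, 9 genes were lower and 0 higher. LIPA then had a log2 fold change of -1.01 (SE 0.10, against 0.12 without the block). Deviations of same-numbered libraries from their group means, taken over all tested genes, correlated at 0.0558, 0.0138 and -0.0156. The numbers were not treated as pairs. Genes with few counts add noise to such correlations, so these values cannot show that the libraries are unpaired. The block changed no call among the members or the role lists. Among the 7 members depth limits PNPLA2 most, at 63 to 102 counts per library.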

Other observations

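Among the markers of other cell types, the B cell list was not near 0, and most of its sum came from PAX5. PAX5, the transcription factor that commits cells to the B lineage, stood at 81.7, 69.5 and 49.6 CPM of raw library totals in control libraries 1, 2 and 3. In miR-125a-5p libraries 1, 2 and 3 it stood at 58.3, 42.5 and 40.5 CPM, so the groups overlapped. MS4A1 and CD79A, which B cells express strongly, lay at or under 0.242 CPM in every library. LIPA was highest in control library 1, as PAX5 was, and any link between them was not tested.

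SPACA6, the gene whose levels over the 6 libraries were most like those of LIPA (place 19 without control library 1), is also the gene around MIR125A. RefSeq (GRCh38.p14) places SPACA6 at chr19:51682686-51713143 and MIR125A, the natural source of the transfected microRNA's sequence, inside it at chr19:51693254-51693339. SPACA6 stood at 7.26, 6.39 and 6.08 CPM in control libraries 1, 2 and 3, and at 5.05, 4.78 and 4.91 CPM in miR-125a-5p libraries 1, 2 and 3. All miR-125a-5p values lay below all control values, as in 5.9% of tested genes. SPACA6 was named for its likeness to LIPA, whose groups do not overlap, so nothing is read from this. The raw counts were low, 41 to 74 per library, and the log2 fold change of SPACA6, -0.42 (SE 0.27), did not pass by edgeR (adjusted p = 0.887). Its longest annotated 3′ UTR held no match to the seed.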
